A study of Mus musculus with 192 samples.

Results

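The nuclear genes of the mitochondrial respiratory chain were followed at their transcription start sites in single mouse embryonic fibroblasts (MEFs). Members were the genes named Ndufa, Ndufb, Ndufc, Ndufs, Ndufv, Sdh, Uqcr, Cox4 to Cox8 or Atp5 in the RefSeq-annotated table of start-site windows. The table names 95 such genes of 18460, with 1484 windows of 150 bp within 1000 bp of the annotated start of 91 of them. Just inside the 1000 bp limit lay a Cox4i1 window at 997 bp with 25 peaks, and just outside it one at 1004 bp with 3 peaks. The names also take in 12 assembly factors, which help to build a complex without staying in it, and 1 gene copy.

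The cells were C57BL/6 MEFs grown on plastic, and all of them received interferon-beta at 100 U/ml for 1 h. A naïve and a pretreated group hold 96 cells each. The nature of the pretreatment is not stated, and neither animals nor cultures nor plates are named, so each group is 1 sample of many cells and no difference below has a replicate check or a p-value. After cells with under 10% of the median depth were left out, 92 naïve cells (305066 to 3857034 tags) and 85 pretreated cells (502374 to 13174313 tags) remained. Of the fibroblast markers 10 of 10 were listed, with a summed level per cell of 8621, 43433 and 93645 (lowest, median, highest) in naïve and 2321, 56715 and 101752 in pretreated cells. Epithelial and muscle markers were listed at 0 in every cell. Of the other marker lists, the leukocyte gene Cd68 had peaks in 8 naïve and 3 pretreated cells and Lyz2 in 1 naïve cell. The neural gene Tubb3 had peaks in 3 naïve cells and the endothelial gene Kdr in 1 pretreated cell. The fibroblast marker Thy1 was listed in 1 naïve cell and no pretreated one, and Pdgfra in 10 naïve and 6 pretreated cells. The part of other cells in the differences was not tested. Peaks on the mitochondrial chromosome were listed in naïve cells alone, 1287 against 0, so the subunits encoded there are not described. Whether both groups were aligned to the same reference is not given in the sources used here, so in every ratio below an effect of alignment cannot be told apart from that of the pretreatment.

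The respiratory chain passes electrons from NADH and succinate to oxygen through complexes I to IV, and the proton gradient this builds drives the ATP synthase, complex V. Core subunits include those with the redox centres, quinone sites or catalytic sites, whereas most accessory subunits are small and surround and stabilise them. Uqcrc1, Uqcrc2, Atp5c1, Atp5d and Atp5e were also counted as core here. The genes for the ATP synthase c-ring, Atp5g1, Atp5g2 and Atp5g3, were counted as accessory. The transcription factors NRF1, GABPA and YY1 are known for binding promoters of these genes.

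Those known factors make the promoter letters worth seeing. RefSeq promoter sequences (GRCm38.p6, 250 bases before to 50 after the start) were found for 79 of the 95 members, 84 promoters in all. The NRF1 letters GCGCATGCG, searched on both strands, were in 11.9% of member promoters, in 4.65% of 4475 promoters of tested genes and in 1.75% of all 32851. The YY1 letters AAGATGGCG were in 9.52%, 4.11% and 1.40% in that order, and the ETS or GABPA letters CCGGAAG in 26.2%, 23.4% and 8.86%. The GC box letters GGGCGG were less frequent in member promoters (46.4%) than in those of tested genes (64%), with 35.7% over all. TATAAA was in 10.7%, 7.82% and 13.6%. Of the 8 YY1 matches, 7 began 11 to 36 bases after the start, and the last, in Atp5j, began 88 bases before it. The NRF1 letters read nearly the same on both strands, so most matches overlap a second match on the other strand.

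The next lines show the 100 bases before the start of 4 members with NRF1 letters and of Ndufa7 and Uqcr10, the members with the largest difference in mean level between the groups. Capitals mark the searched letters on either strand: NRF1 in the first 4, with a GC box at the outer end of Ndufa8, and TATAAA on the opposite strand in Ndufa7. Uqcr10 holds none of the searched letters in this stretch.
Ndufa11, chr17:56717662-56717761, + strand, GRCm38.p6: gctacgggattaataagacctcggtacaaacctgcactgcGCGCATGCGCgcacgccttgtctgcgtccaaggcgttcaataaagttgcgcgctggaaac
Atp5k, chr5:108434400-108434499, - strand, GRCm38.p6: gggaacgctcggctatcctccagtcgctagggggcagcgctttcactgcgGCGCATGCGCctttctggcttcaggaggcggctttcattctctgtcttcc
Atp5g2, chr15:102671048-102671147, - strand, GRCm38.p6: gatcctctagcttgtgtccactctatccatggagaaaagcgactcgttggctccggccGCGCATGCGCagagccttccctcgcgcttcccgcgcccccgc
Ndufa8, chr2:36049339-36049438, - strand, GRCm38.p6: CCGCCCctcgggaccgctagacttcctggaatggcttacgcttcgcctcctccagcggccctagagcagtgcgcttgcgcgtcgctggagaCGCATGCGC
Ndufa7, chr17:33824472-33824571, + strand, GRCm38.p6: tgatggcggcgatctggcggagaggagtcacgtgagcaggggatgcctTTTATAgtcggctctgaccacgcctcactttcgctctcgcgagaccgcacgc
Uqcr10, chr11:4704345-4704444, - strand, GRCm38.p6: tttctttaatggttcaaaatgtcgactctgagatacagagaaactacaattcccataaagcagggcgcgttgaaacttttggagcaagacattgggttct

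A level below is the mean over cells of a gene's tags, scaled to 10000000 tags of the cell, in peaks on the gene's strand near its start. A tag is a read of an RNA's 5′ end, so levels were not divided by transcript length. Of the members' tags on their own strand, 96.4% in naïve and 96.7% in pretreated cells lay within 200 bp of the start. On this scale the members together held 3.386% of tags in naïve and 2.999% in pretreated cells. The sum per cell ran from 47433 through a median of 342326 to 441025 in naïve cells and from 44878 through 295081 to 549226 in pretreated cells, so the groups overlapped widely. The log2 ratio of the mean sums, pretreated over naïve, was -0.18.

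Of the 95 members, 88 had a peak on their strand and 81 were tested, meaning that at least 20% of the cells in 1 group or the other listed them. The tested members were listed in a median of 95.7% of naïve and 97.6% of pretreated cells, against medians of 29.3% and 51.8% over the 4487 tested genes. A naïve cell had peaks of 36, 64 and 74 members (lowest, median, highest) and a pretreated cell of 22, 69 and 75. In all, 25 members were listed in every naïve cell, 18 in every pretreated cell and 12 in every cell of both.

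Most of the abundant members were accessory subunits, ranked here by the mean of the levels in both groups. Ndufa4, long counted in complex I and now placed in complex IV, led in both groups, with 2983, 21264 and 37340 per cell in naïve cells and 4221, 17374 and 46505 in pretreated cells. Its means of 20706 and 17587 gave a log2 ratio of -0.24, and the groups overlapped over nearly their whole range. In complex I the highest were Ndufa2 (means of 15079 and 10388), Ndufb9 (10680 and 13773) and Ndufa6 (7736 and 9422), with Ndufa7 between the first 2 in naïve cells at 14221. In complex II they were the iron-sulfur subunit Sdhb (4402 and 6797), the assembly factor Sdhaf4 (2861 and 2424) and the membrane anchor Sdhd (2349 and 2715). Uqcr10, Uqcr11 and Uqcrq, small accessory subunits, led complex III, although in pretreated cells Uqcrq (8210) and the core subunit Uqcrc1 (3766) stood above the other two. Cox8a and Cox6a1 followed Ndufa4 in complex IV. In complex V the rotor subunit Atp5c1 (10085 and 12801), Atp5md (11449 and 10323) and the rotor subunit Atp5e (9210 and 9050) were highest. In naïve cells alone Atp5l was above them at 12195. Of these abundant members Uqcr10, Uqcr11, Cox6a1, Atp5c1 and Atp5l have near-identical copies elsewhere in the genome, so their values are uncertain.

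Some families have isoforms of different tissues. The table has no window near the start of Cox6b2, Cox8b, Ndufa4l2 and Ndufa13, so these 4 members stand at 0 whatever their expression, as Ndufa13, a complex I subunit of most tissues, shows. Cox4i1 was at 5321 and 6368 in naïve and pretreated cells, while Cox4i2, known from lung, was listed at 0. Cox6a1 was at 5574 and 12602, and Cox6a2, the heart and muscle form, had peaks in 2 naïve cells and 1 pretreated cell. Cox6b1 (5952 and 2708) and Cox8a (6060 and 14441) were listed in nearly every cell, whereas Cox6b2, a testis form, and Cox8b have no window. Cox7a2 was at 5260 and 3273 and its relative Cox7a2l, known for joining complexes III and IV, at 2511 and 433, while the muscle form Cox7a1 had a peak in 1 pretreated cell. Of the 3 genes for the ATP synthase c-ring, Atp5g1 (5554 and 4701) and Atp5g3 (2140 and 1811) stood far above Atp5g2 (110 and 209). Cox6a1, Cox7a2l, Atp5g1 and Atp5g2 have near-identical copies, so their values are uncertain.

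Between the groups, single members differed in both directions. The median log2 ratio of the tested members was 0.16 (quartiles -0.63 and 0.67), against 0.51 (-0.13 and 1.17) over all tested genes. This shift of all genes is what median-of-ratios scaling removes, and with it the members' median became -0.34. At least 2-fold lower in pretreated cells were 18 of 81 members (22.2%), against 8.42% of all tested genes. At least 2-fold higher were 10 members (12.3%), against 30.1% of all tested genes. The first share lay above that of all genes and the second below it, and neither difference was tested, because each group is 1 sample. Median-of-ratios scaling changed the split to 22 lower and 6 higher, and that of all tested genes to 15% lower and 17.1% higher.

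**Figure D1:**
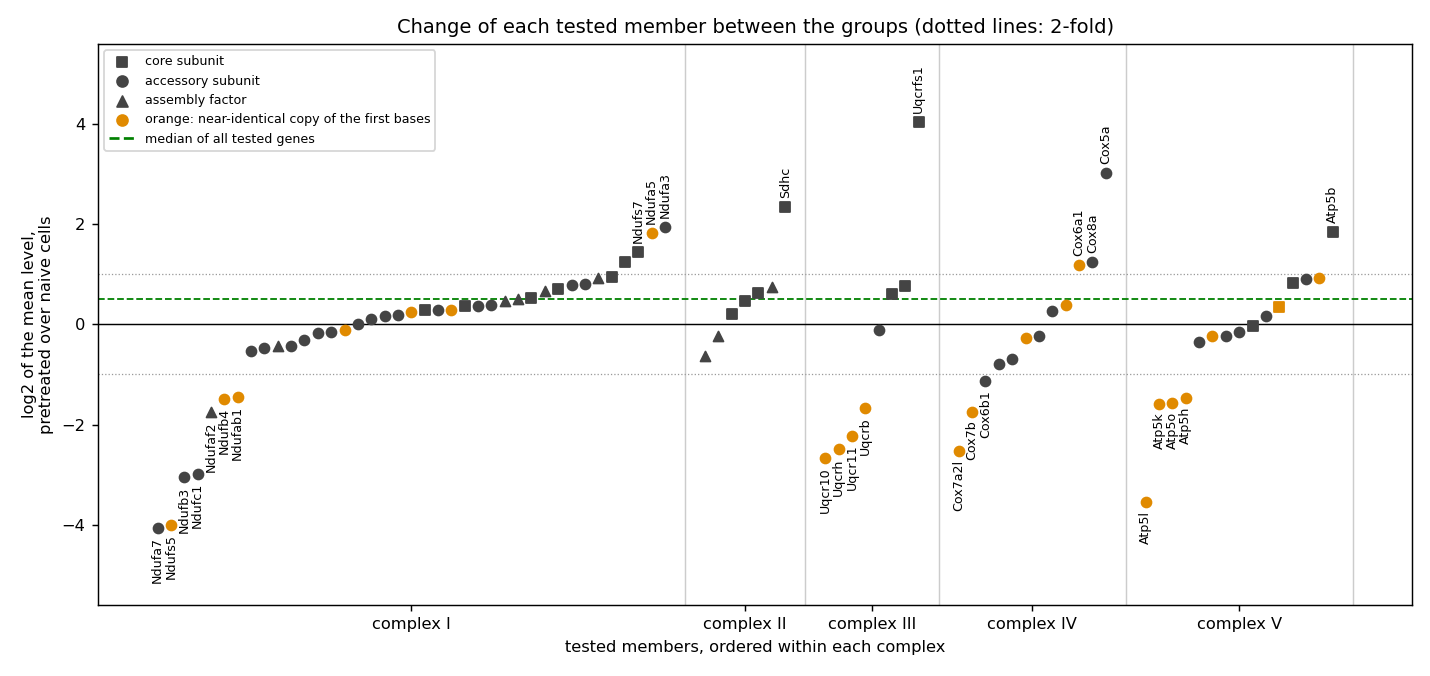
Log2 of the mean level in pretreated over naïve cells for each of the 81 tested members, ordered within complexes I to V, with squares for core subunits, circles for accessory subunits, triangles for assembly factors, orange for members with a near-identical copy of their first bases, and a dashed line at the median of all tested genes. The 18 members below the lower dotted line (2-fold) hold 13 of the orange points and no core subunit.

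Complex III had the largest difference of the 5 complexes when all subunits were summed. The sum of its subunits was 4294, 43135 and 68780 per naïve cell (lowest, median, highest) and 204, 19824 and 34472 per pretreated cell, and its mean went from 43458 to 19773, a log2 ratio of -1.14. The ratios were -0.12 for complex I, 0.50 for complex II, 0.11 for complex IV and -0.15 for complex V, and median-of-ratios scaling puts complex IV below 0 and complex II at about 0. The 4 lower members of complex III all have a near-identical copy elsewhere in the genome, described below, which makes their levels uncertain. Its 4 subunits without a copy went from 12295 to 13939 (log2 0.18). For subunits without a copy the ratio was -0.16 in complex I, 0.50 in II, 0.06 in IV and 0.48 in V. Complexes III and V thus turned from negative to positive, but only without median-of-ratios scaling, which puts both below 0. The median of all tested genes without a copy was 0.60. Atp5md was not searched for a copy and is left out of complex V here. Within complex III the 5 accessory subunits went from 39976 to 14044 (log2 -1.51), whereas the 3 core subunits went from 3482 to 5729 (log2 0.72). The 4 subunits of complex II, all core subunits, were each above 0, Sdha and Sdhd only without that scaling.

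**Figure D2:**
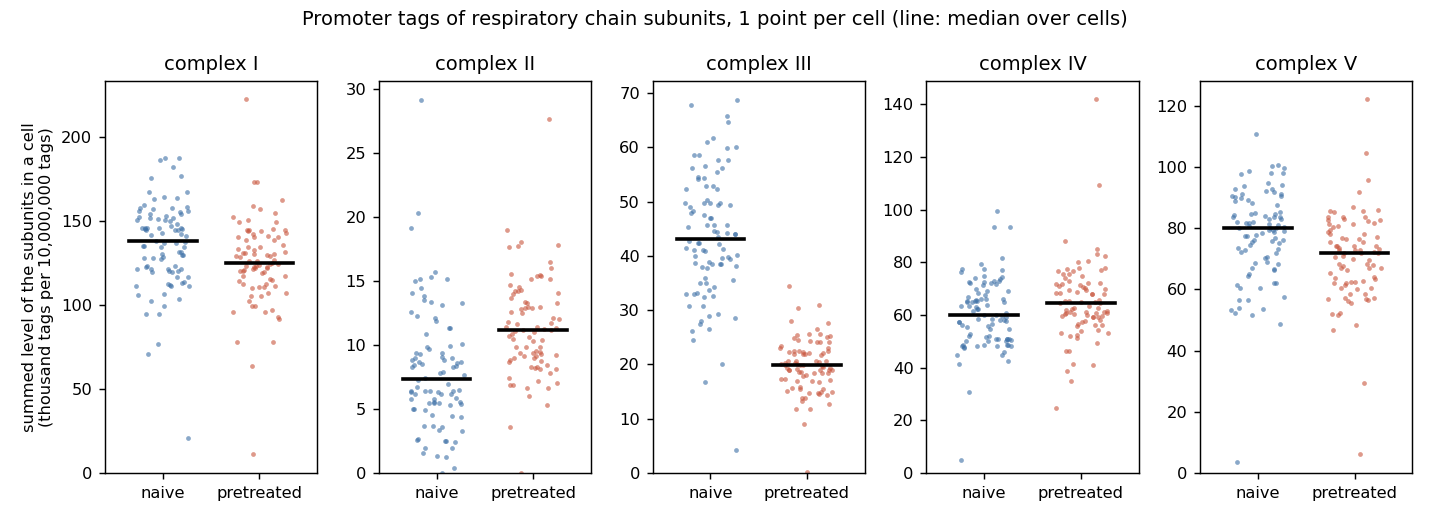
Summed level of the subunits of each complex in each of 92 naïve and 85 pretreated cells, in units of 1000 tags per 10000000 tags, with 1 point per cell and a line at the median. The complex III panel shows the medians farthest apart, 43135 against 19824, and the other panels overlap over most of their range.

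Core subunits had ratios near the shift of all genes. Of 18 tested, 17 had a higher mean level in pretreated cells, and their median log2 ratio of 0.66 lay near the 0.51 of all genes. The lower quartile of all tested genes was -0.13, so most of those genes were above 0 as well. Under median-of-ratios scaling 12 of the 18 were above 0, and Sdha, Sdhd, Ndufv2, Ndufs1 and Atp5c1 moved below it. All 7 core subunits of complex I were above 0, and 3 of the 4 members counted as core in the catalytic F1 part of complex V. No gene named Atp5a1 is among the members, so F1 is not covered in full. Of 54 tested accessory subunits 33 were below 0, with a median of -0.24, and their sum went from 279833 to 224367 while that of the core subunits went from 45928 to 67607. With that scaling 45 of the 54 accessory subunits were below 0.

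Ndufa7, an accessory subunit of the arm of complex I that reaches into the matrix, had the lowest ratio by mean level; by pooled tags Ndufs5 was lower (log2 -4.01 against -3.93). It was listed in 92 naïve cells at 656, 14242 and 31806 and in 81 pretreated cells, at 0, 715 and 3577 over all 85. The ranges between the quartiles lay far apart, 9680 to 18497 against 418 to 1128. The means of 14221 and 846 gave a log2 ratio of -4.07. Pooled over cells it had 286835 tags in naïve cells (95% Poisson interval 285786 to 287887) and 26474 in pretreated cells (26156 to 26795), intervals that cover counting error only.

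In complex III, Uqcr10 was at 1082, 14930 and 37803 per naïve cell and at 0, 2085 and 6258 per pretreated cell, a log2 ratio of -2.67. Uqcr11 was at 1016, 12817 and 32067 against 0, 2845 and 8093 (log2 -2.22). For both genes the ranges between the quartiles did not overlap. The hinge protein Uqcrh, which touches cytochrome c1, had means of 2163 and 384 (log2 -2.49), and Uqcrb, which lies near a quinone site, 664 and 209 (log2 -1.67).

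In the ATP synthase 4 members were lower, each with a near-identical copy. Its 7 subunits that were searched and had no copy went from 26789 to 37334. Atp5md (11449 and 10323) was not searched for a copy and is left out of that sum. Atp5l, subunit g of the membrane part, was at 852, 12098 and 26091 per naïve cell and at 0, 935 and 2540 per pretreated cell (log2 -3.54). The ranges between the quartiles again lay apart, 9199 to 14039 against 666 to 1363. Lower too were Atp5k, subunit e (log2 -1.58), Atp5o, which joins the stalk to F1 (log2 -1.56), and Atp5h, subunit d of the stalk (log2 -1.46).

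The remaining lower members of complex I were Ndufs5 (log2 -4.00), Ndufb3 (-3.06), Ndufc1 (-2.99), the assembly factor Ndufaf2 (-1.76), Ndufb4 (-1.48) and the acyl carrier protein Ndufab1 (-1.45). In complex IV they were Cox7a2l (-2.54), Cox7b (-1.74) and Cox6b1 (-1.14), which bridges the complex IV dimer. Ndufc1 was high, with means of 8115 and 1024, while Ndufs5 was listed in 52 naïve and 9 pretreated cells, with means of 855 and 53.3. Median-of-ratios scaling lowers every ratio by 0.50, so it cannot turn a ratio that is already negative.

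Among the 10 higher members, Uqcrfs1, the Rieske iron-sulfur protein of complex III, had the largest ratio (log2 4.04) at a low level, with means of 16.4 and 268. It was listed in 4 of 92 naïve cells (4.35%, 95% exact binomial interval 1.20 to 10.8) and in 35 of 85 pretreated cells (41.2%, 30.6 to 52.4), so its median was 0 in both groups. Cox5a, an accessory subunit of complex IV, was at 0, 244 and 2564 per naïve cell and at 0, 2395 and 6714 per pretreated cell (log2 3.02). Atp5b, the catalytic beta subunit of the ATP synthase, was at 0, 1978 and 5289 against 288, 7487 and 13449 (log2 1.84). The ranges between the quartiles were apart for both genes, 812 to 3162 against 5613 to 8900 for Atp5b.

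Of the abundant members Cox8a was at 393, 5601 and 17991 per naïve cell and 3505, 13476 and 43539 per pretreated cell (log2 1.25), and Cox6a1 had means of 5574 and 12602 (log2 1.18). Also higher were the membrane anchor Sdhc (log2 2.34, in 2 and 21 cells) and Ndufa3 (1.94, in 7 and 53 cells). So were Ndufa5 (1.82) and the core subunit Ndufs7 (1.45). Cox6a1 and Ndufa5 have near-identical copies, so their values are uncertain. Median-of-ratios scaling lowers each ratio by 0.50, and 6 of the 10 were then still at 2-fold.

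Most of the lower members resemble another place in the genome. A near-identical copy, at 95% identity or more over at least 50 of the first 200 transcript bases, was found in the GENCODE vM21 transcripts for 23 of the 81 tested members (28.4%) and for 13% of 4335 tested genes searched. Of these 23 members 13 were at least 2-fold lower, against 26.1% of all tested genes with a copy, and 2 were higher, against 13.5%. Of the 57 members searched without a copy, 5 were lower, against 4.85% of such genes, and 8 were higher, against 33%. The 5 were Ndufa7, Ndufb3, Ndufc1, Ndufaf2 and Cox6b1. The levels of the 13 lower members with a copy are uncertain, since the sources used here do not give how reads with several matches were treated.

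The copies together were also lower in pretreated cells, mainly through copies of Uqcrb and Atp5h. By the GENCODE table the 27 annotated pseudogene copies of those 13 members had a summed level of 16534 in naïve cells and of 1549 in pretreated ones, and the 13 members went from 61917 to 12437. The copies Gm2962, Gm10250 and Gm4953 carried most of that sum (13516 and 132), and the rest went from 3018 to 1417. Of the 27 copies 15 were listed at 0 in naïve cells, 10 were lower in pretreated cells and 3 were higher. Gm2962, a copy of Uqcrb, was listed in 92 naïve cells at 5517 and in 5 pretreated cells at 13.5. Gm10250, a copy of Atp5h, was listed in 88 naïve cells at 4092 and in 1 pretreated cell at 4.38. For Uqcr11 the copy Gm16418 went the other way, from 164 to 540. So did Gm6293, a copy of Uqcr10, from 9.03 to 26.7. Of the 4 copies of Atp5l only Gm10221 was listed, at 2.92 in 1 naïve cell. The part of read placement in the difference was not tested. A difference in processing between the groups and the pretreatment itself cannot be told apart here.

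Copies and length set the 2 classes of subunit apart as well. A copy was found for 22 of 54 tested accessory subunits and for 1 of 18 core subunits, and the median transcript was 714 bases in the accessory and 1516 bases in the core class. Among subunits without a copy 16 of 17 core and 15 of 31 accessory subunits were above 0, with medians of 0.70 and -0.10. The median of all tested genes without a copy was 0.60, so most of those genes were above 0 too. Over the members searched and without a copy the log2 ratio of the summed level was 9.71e-05. Atp5md, which was not searched, is left out of that sum and of the 31 accessory subunits.

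The lower members had the shortest transcripts. The principal transcript had a median of 679 bases in the 18 lower members, 1046 in the 53 between and 929 in the 10 higher members. Across the 81 members length and log2 ratio had a Spearman rho of 0.30, and across 4348 tested genes 0.03, both descriptions over genes that share the same cells. Under 600 bases the median log2 ratio was -0.66 for 16 members and -0.42 for 78 tested genes. In that bin the 7 members without a copy had a median of -0.03 and the 32 genes without a copy -0.06. From 1000 to 2000 bases it was 0.36 for 25 members and 0.59 for 1366 genes.

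**Figure D3:**
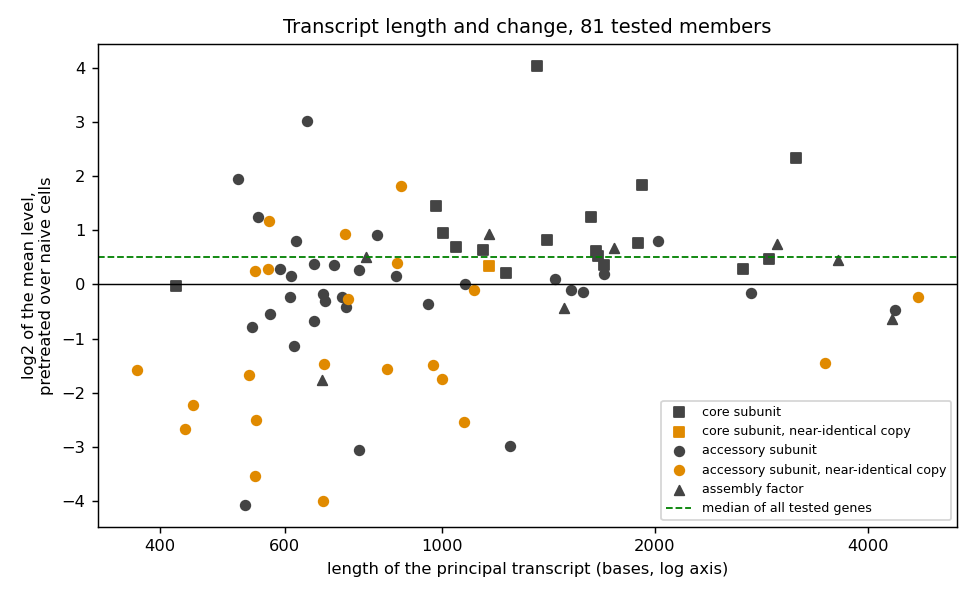
Length of the principal transcript (bases, log axis) against the log2 ratio of the mean level for the 81 tested members, with squares for core subunits, circles for accessory subunits, triangles for assembly factors and orange for members with a near-identical copy. The points under about -1 lie mostly under 1000 bases, and the core subunits lie mostly above 0.

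Several lower members had 1 dominant window in naïve cells. A peak is assigned to the window of its main position, and the window with most tags over a group's cells is called leading here. For 9 of the 18 lower members the naïve leading window held at least 50% of the naïve level. Among those listed in at least 20% of naïve cells, so it did for 25 of the 81 tested members and 616 of the 4487 tested genes. The median share of the naïve leading window was 39.7% for members and 32.6% for all genes. From 37 to 81 naïve cells had a peak in that window. Both choices, lower members and the window that led in naïve cells, favour a low pretreated value in that window, so the values are a description. Windows a few bp apart count separately: within 20 bp of the naïve leading window lay 71.8% to 99.9% of the naïve and 60.4% to 100% of the pretreated level of these 9 members.

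In Uqcr10 the naïve leading window (chr11:4604264-4604413, mm9, annotated promoter-TSS) went from 11632 to 4.61 and the other windows from 2818 to 2263, yet 91.2% of the pretreated level lay within 20 bp of it. In Uqcr11 (chr10:79869470-79869619) the leading window went from 12488 to 116 and the others from 1397 to 2857, with 60.4% of the pretreated level within 20 bp. In Atp5o (chr16:91931744-91931893) the values were 5728 and 33.8 in the window and 1131 and 2290 outside it, with 81.3% within 20 bp. Most of the pretreated level of these 3 genes thus lay within 20 bp of the naïve leading window.

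Ndufa7, Atp5l and Ndufc1 were lower both inside and outside. The Ndufa7 window (chr17:33961489-33961638) held 91.6% of the naïve level and went from 13031 to 279, with 1190 and 568 elsewhere. That of Atp5l (chr9:44728715-44728864) went from 8887 to 16.5, with 3307 and 1031 elsewhere, and that of Ndufc1 (chr3:51212787-51212936) from 5307 to 25, with 2808 and 999 elsewhere. All of these windows are annotated promoter-TSS. Where a naïve leading window held at least 50% of the level, it was at least 10-fold lower in pretreated cells for 8 of 25 members (32%) and for 127 of 616 tested genes (20.6%), counts that also rest on the choice of the naïve leading window.

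**Figure D4:**
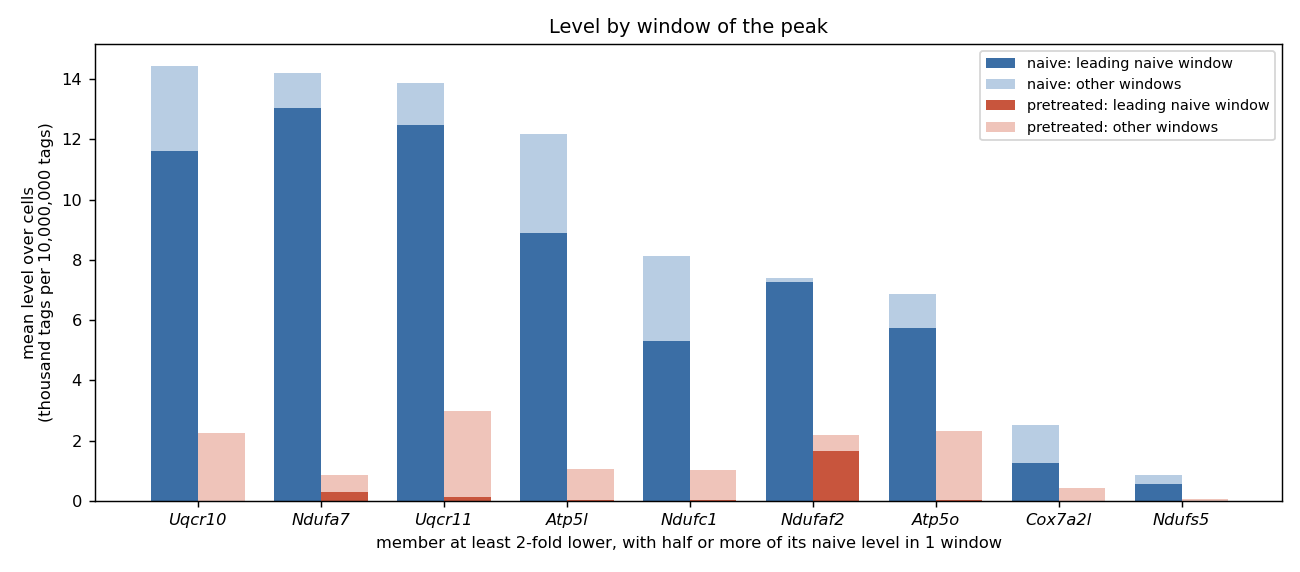
Mean level in naïve (blue) and pretreated (red) cells, in units of 1000 tags per 10000000 tags, of the 9 members at least 2-fold lower whose naïve leading window held at least 50% of the naïve level; dark bars are that window and light bars all other windows. The dark part nearly disappears in pretreated cells in all but Ndufaf2, which kept 1644 of 7257.

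For most members the leading start itself hardly moved. Of the 74 members that reached the 20% limit in each group, 40 (54.1%) had leading windows within 5 bp of each other, against 57.1% of 2800 genes. The same window led in 29 members (39.2%), against 41.5% of genes, and the median offset was 4 bp, against 3 bp. Where the start moved it lay upstream in pretreated cells for 30 members and downstream for 15, against 985 and 653 of the 2800 genes. Leading windows lay a median of 22 bp (naïve) and 23 bp (pretreated) from the annotated start, and 77 of 81 naïve ones are annotated promoter-TSS and 4 5′ UTR.

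The farthest offsets, with negative values upstream, were -253 bp in Atp5g3, 80 bp in the F1 subunit Atp5d, -62 bp in Atp5g1 and -53 bp in Ndufa10. Cox5a, Cox6b1 and Sdhaf2 followed at -26, -26 and 26 bp. In Atp5g3 the naïve leading window held 39.6% of the naïve level and went from 848 to 132, while the other windows went from 1293 to 1679. A member had peaks in 6, 15 and 44 windows (lowest, median, highest), the most in Atp5b.

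Member peaks had a lower median focus ratio than peaks of all genes. This ratio, HOMER's share of the tags of a peak that lie near its main position, was 0.898 over 5943 member peaks in naïve cells and 0.803 over 6044 in pretreated cells. Over the peaks of all genes it was 0.956 and 0.897. By gene, 62 of 74 members (83.8%) had a lower median in pretreated cells, as had 2498 of 2800 genes (89.2%), with median differences of -0.077 and -0.064. The broadest members were Atp5e (0.562 over both groups), Atp5md (0.627) and Cox5a (0.654), and the sharpest Ndufaf2 (0.994), Ndufs5 (0.990) and Sdhc (0.984). Pretreated cells were deeper, with a median of 2650490 tags against 2305628, and the part of depth in this ratio was not tested.

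**Figure D5:**
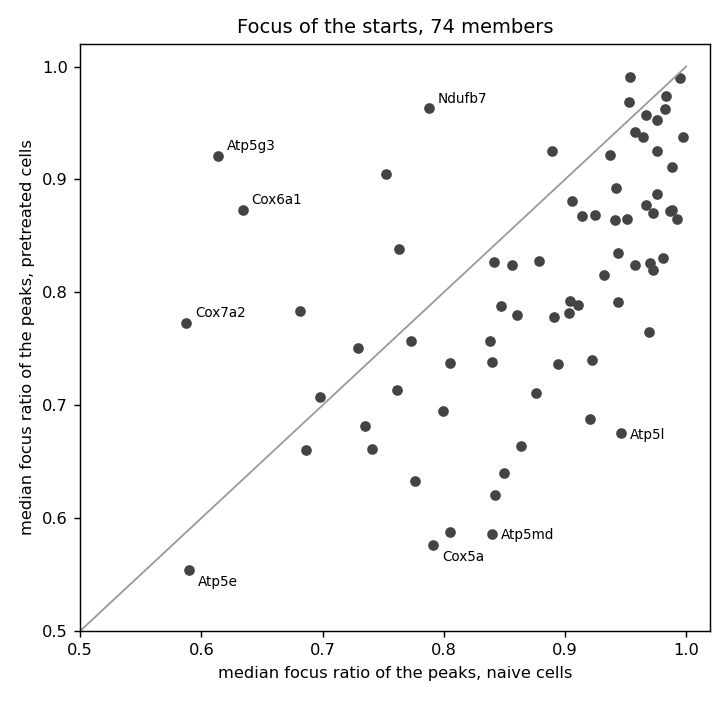
Median focus ratio of the peaks of each of 74 members in naïve (x axis) and pretreated cells (y axis), both without unit, with a line where the values are equal. The 62 points under the line have broader starts in pretreated cells; Atp5g3, Cox6a1, Cox7a2 and Ndufb7 are among the 12 above it.

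The share of cells with a peak changed little for the members, which were near the ceiling. The median difference was 1.00 percentage points, against 17.1 points over all tested genes. In 18 members (22.2%) at least 20 points more pretreated than naïve cells had a peak, against 42.2% of genes. In 4 members (4.94%) at least 20 points fewer had one, against 2.67% of genes.

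Of 58 genes listed for cytochrome c, assembly, transport partners, regulators and the citrate cycle, 55 were listed and 34 tested; 3 were at least 2-fold lower (8.82%, against 8.42% of all genes) and 8 higher (23.5%, against 30.1%), with a median log2 ratio of 0.56, against 0.51. Cyc1, the cytochrome c1 of complex III, went from 152 to 2248 (log2 3.89), in the direction of the core subunits. Slc25a5, a carrier that exchanges ADP and ATP, went from 6629 to 260 (log2 -4.67), while the phosphate carrier Slc25a3 went from 1873 to 9172 (log2 2.29). Cox20, an assembly factor of complex IV, went from 657 to 321 (log2 -1.03). Of the regulators, Tfam, which packages mitochondrial DNA, was at 235 and 426, Nrf1 at 75.4 and 171, and Gabpa was listed at 0.

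Cells with more complex I tags tended to have more complex V tags. Across the 92 naïve cells the complex I and complex V sums had a Pearson r of 0.52 and a Spearman rho of 0.32, and across the 85 pretreated cells 0.67 and 0.43. Both sums share each cell's depth and scaling. In naïve cells the member sum and the mitochondrial chromosome's level, 71656 on average (36050 to 219854), had a Pearson r of -0.33 and a rho of -0.03. Some cells lay far from the rest in the complex I and V sums. Naïve cell 31 had 20848 and 3704, pretreated cell 93 had 11078 and 6259, and pretreated cell 18 had 222824 and 122153. The part of such cells in the Pearson values was not tested.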

How the data were processed

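Single cells were profiled by start-site sequencing of polyadenylated RNA, 1 peak file per cell. The submitters' processing notes name Bowtie2, HOMER and mm9. Per the file headers, HOMER called peaks of 150 bp in each cell on separate strands, with at least 200 tags per 10000000, at least 300 bp apart, 2-fold over the surrounding 10000 bp at p 1e-04. Each deposited signal is a number of tags per 10000000 tags in that cell, per the file headers. The focus ratio is a fraction from 0 to 1 given by the authors for each peak. Only called peaks are listed, so a gene without one stands at 0 and is given no fold. Tags are reads, not molecules. Read filters are not given in the sources used here.

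Values times the header total gave whole tags (within 0.1) for all 1082504 peaks. Of these, 1080791 started within 2 bp of a window of the deposited mm9 tables. Peaks on the gene's strand within 1000 bp of the start were summed per gene and cell, strands coming from RefSeq and GENCODE vM21. Cells with under 10% of the median total (230563 tags) were left out, 4 naïve and 11 pretreated. A count model was not used, because each group is 1 sample; no p-value was computed. Intervals are 95% and cover counting error only. The scripts recovered the known answers on simulated data. Named genes were the 3 highest of each complex, the 10 largest ratios in each direction (all 18 lower members were named after their values were seen), isoform sets, the 5 farthest starts (3 shared the fifth place) and the 3 broadest and sharpest; Cyc1, Slc25a5, Slc25a3, Cox20, Tfam, Nrf1, Gabpa, Uqcrc1, Ndufa13, single cell type markers and the copies were named after their values were seen. Some items that the rule names are not reported here. Members and lists were chosen with earlier results of these data known. In 2 further matrices, 384 columns carry no names and were not used. Copies were searched with BLAST 2.17.0, and values computed with Python 3.11.15, pandas 2.3.3, NumPy 2.4.6 and SciPy 1.17.1. Alternatives covered the cells kept, the annotation table, the distance, the scaling, the detection limit, the fold and the copies.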

Additional observations from a re-analysis of the deposited data

Results flagged for a closer look

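Ndufa1 and Atp5f1 are listed at 0 by the RefSeq table, which gives the windows at their starts to the neighbouring genes Rnf113a1 and Wdr77, and both were found in the GENCODE table, which the members' values above do not use. By that table Ndufa1, an accessory subunit of complex I, was at 4730 in naïve cells (in 90 cells) and 4219 in pretreated cells (in 83), a log2 ratio of -0.16. Atp5f1, subunit b of the ATP synthase stalk, was at 8277 (in 91 cells) and 8270 (in 84 cells), a log2 ratio of 0.00 at 2 decimals. The value of Atp5f1 is uncertain, because its first bases have a near-identical copy.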

How the results depend on the processing

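No paired analysis was possible because the cell numbers in the labels only name cells and no result comes from a test. The alternatives without copies, with cells of 1000000 to 4000000 tags, and all those for the core and accessory counts were added once the data were known. The summed log2 ratio of -0.18 was -0.36 per gene tags, -0.68 with median-of-ratios scaling and -0.23 at 1000000 to 4000000 tags. Without copies it changed sign only to 9.71e-05, which is about 0. The sums of complexes III and V turned, from -1.14 to 0.18 and from -0.15 to 0.48. Those 2 turns hold only without median-of-ratios scaling. The values without copies leave out Atp5md, which was not searched and was lower in pretreated cells. The summed ratio was also -0.20 with every cell, -0.16 for subunits alone, -0.17 within 200 bp and -0.14 by the GENCODE table. The members' median of 0.16 was 0.14, 0.13 and 0.19 under the first 3 of these, 0.17 without each gene's highest cell, 0.10 in at least 50% of cells, 0.28 without copies and 0.056 at 1000000 to 4000000 tags. It reversed to -0.091 per gene tags and to -0.34 with median-of-ratios scaling. The 18 lower members were 5 without copies, and the 10 higher members 6 with median-of-ratios scaling and 6 at 3-fold; accessory subunits below 0 were 16 of 31 without copies, against 33 of 54. The difference in cell shares of 1.00 points was 1.04 with all cells, 1.09 within 200 bp and by the GENCODE table, 0.0 for subunits, in at least 50% of cells and at 1000000 to 4000000 tags, and 0.11 with cells thinned to 1122993 tags, which left out 16 naïve and 2 pretreated cells. The difference in focus ratio of -0.095 was -0.101 with all cells, -0.118 weighted by tags and -0.11 in peaks with at least 1000 normalized tags. Leading starts within 20 bp were shared by 61 members. The cause was not tested. At these depths a member under 200 tags per 10000000 in a cell is not listed.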
